A study of Mus musculus with 12 samples.

Results

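Colon tumours that lacked both p53 and miR-34a were compared with tumours that lacked miR-34a alone, which asks what the loss of p53 adds where miR-34a is already absent. The comparison used 6 of the 12 RNA sequencing libraries of the series, all 3 double deficient and all 3 miR-34a deficient libraries, and both groups were taken from the genotype in the library titles. The tumours came from the colon of FvB mice given azoxymethane, an alkylating carcinogen, by weekly intraperitoneal injection of 10 mg/kg over 6 weeks, and they were collected at week 16 counted from the first injection. Both groups lacked miR-34a in intestinal epithelial cells (IEC), and the double deficient group also lacked p53 there. The other 6 libraries came from tumours of the same carcinogen treatment, 3 deficient for p53 alone in these cells and 3 wt. The labels do not name the Cre line, the age or the sex of the mice, or whether the replicates are different animals; a p-value here reflects how much these libraries vary and no more. The tumours were not sorted, so stroma and immune cells kept both genes, and fewer cells of a type cannot be told apart from less RNA per cell.

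p53 is a transcription factor that is stabilised after DNA damage and switches on genes of cell cycle arrest, repair, metabolism and cell death. miR-34a is a microRNA whose gene is itself a p53 target, and it lowers mRNAs that pair with its seed. In the intestine p53 restrains damaged crypt cells, and its loss is a common late step of human colorectal cancer. The mature microRNA that both groups lack is shown with its seed, bases 2 to 8, in capitals (RefSeq, GRCm38.p6, chr4:150068473-150068494, plus strand). Its level was not analysed here.
miR-34a-5p: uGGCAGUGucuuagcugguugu

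Values are the authors' normalized expression values per gene, rounded to whole numbers, with no unit of depth. A difference is given as the mean log2(value + 1) of double deficient minus that of miR-34a deficient tumours, ± SE, with n = 3 libraries per group unless said otherwise. A gene passed when the p-value of limma, adjusted by Benjamini-Hochberg over all 21322 genes tested, was under 0.05.

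Genes of epithelial cells had high values in all 6 libraries. Cdh1, the gene of E-cadherin, had values of 51989, 67914 and 66443 in double deficient tumours, against 68325, 67780 and 61769 in miR-34a deficient tumours. Vil1, the gene of the brush border protein villin, had 16701, 28444 and 23110 in double deficient tumours, against 26227, 23487 and 19147 in miR-34a deficient tumours. The groups overlapped for both genes and neither passed (adjusted p = 0.756 and 0.954, limma). Sex-linked genes differed between libraries and were not balanced over the genotypes. Xist, an X-linked RNA, made up 5.92%, 4.52% and 1.24% of the column sums of double deficient libraries 1 to 3, against 52.8%, 0.234% and 0.00141% in miR-34a deficient libraries 1 to 3. Y-linked genes had a mean log2 level between 0.25 and 0.792 in double deficient libraries, against 0, 2.77 and 5.28 in miR-34a deficient libraries. That level was 3.73, 5.21 and 6.98 in p53 deficient libraries, and 0, 2.84 and 4.35 in wt libraries. The library name of miR-34a deficient 1 also carries another code than those of the other 5.

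Trp53, the gene of p53 (ENSMUSG00000059552, GRCm38 chr11:69580359-69591873), was read first. It had values of 924, 504 and 724 in double deficient tumours, against 4357, 3466 and 5120 in miR-34a deficient tumours. Every double deficient library lay below every miR-34a deficient library, by 6.11 times on average. The difference of -2.61 ± 0.24 passed (adjusted p = 0.000668, limma) and did so under all 26 alternative settings. Of the 10 nearest tested genes on either side of Trp53, none passed as lower, and Sat2 and Eif4a1, which lie downstream, were higher. Shbg, between Trp53 and Sat2, had 35, 66 and 135 in double deficient tumours, against 6, 4 and 5 in miR-34a deficient tumours. Its difference was the largest of these neighbours but did not pass (3.54 ± 0.73, adjusted p = 0.0523, limma). In p53 deficient against wt tumours it was 2.81 ± 0.73 (adjusted p = 0.134, limma). Eif4a1, the RNA helicase of translation initiation, had values of 45115, 45830 and 49835 in double deficient tumours, against 32031, 27987 and 30311 in miR-34a deficient tumours, a difference of 0.64 ± 0.12 (adjusted p = 0.0373, limma). Sat2, a gene of the spermidine acetyltransferase family, had 121, 92 and 154 in double deficient tumours, against 29, 30 and 41 in miR-34a deficient tumours, a difference of 1.83 ± 0.36 (adjusted p = 0.0417, limma). Both calls were near the threshold and were lost without any of 8 of the 12 libraries, among them each of the 6 compared here, with adjusted p up to 0.208 and 0.228.

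Across the transcriptome 61 genes were higher (0.286% of those tested) and 132 lower (0.619%) in double deficient tumours. At an unadjusted p under 0.05 there were 3842 of the 21322 genes tested, both directions together. The counts at an unadjusted p in the lists below are to be read beside that share. All 193 genes that passed had groups that did not overlap, as did 13.0% of all tested genes in the higher and 14.3% in the lower direction. The median difference over all genes was -0.06. The deposited values lack a direction of variation within genotypes, of which 47.2% of the squared weight lies on double deficient 3 and 16.5% on double deficient 2. With that direction as a covariate 14 genes were higher and 43 lower, all of them among the 193. Without double deficient 3 the counts were 7 higher and 16 lower, and without double deficient 1 they were 28 and 63. Without double deficient 2 they were 34 and 125. Without miR-34a deficient 1, 2 or 3 they were 23 and 94, 11 and 31, and 20 and 90. Without wt 3, which enters only the estimate of spread, they were 98 and 141. In every alternative that could be run 21 genes passed, 6 higher and 15 lower, among them Trp53, Ccng1, Fam212b, 9030617O03Rik, Fshr, St8sia2, Cyp2f2 and Tfrc.

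Of 87 tested genes in 3 lists of known p53 targets, 9 were lower and 0 higher in double deficient tumours, where 0.619% of all genes were lower. In 36 of the 87 the double deficient values lay wholly below the miR-34a deficient ones, as in 14.3% of all genes. At an unadjusted p under 0.05, 30 were lower and 4 higher. The median over the 87 was -0.33, beside -0.06 over all genes. With the absent direction as a covariate 6 of the 9 passed. Without double deficient 3 the count was 3, without miR-34a deficient 2 it was 4, and without the libraries of the other name code it was 5.

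Genes of cell cycle arrest and p53 feedback made up 5 of the 9. Ccng1, which encodes cyclin G1, a partner of the phosphatase that acts on MDM2, had values of 1402, 1228 and 1261 in double deficient tumours, against 4404, 4149 and 5149 in miR-34a deficient tumours. The groups were far apart relative to their spread, with a difference of -1.81 ± 0.18 (adjusted p = 0.00120, limma). Cdkn1a, the gene of the cyclin-dependent kinase inhibitor p21, had 5448, 7855 and 6695 in double deficient tumours, against 17793, 24443 and 24519 in miR-34a deficient tumours. It fell by 1.74 ± 0.32 on the log2 scale (adjusted p = 0.0354, limma), and the groups did not overlap. Zmat3, which encodes an RNA-binding protein of splicing, had 1200, 995 and 899 in double deficient tumours, against 2737, 2519 and 2880 in miR-34a deficient tumours (-1.40 ± 0.24, adjusted p = 0.0257, limma). Sesn2, whose product holds back mTORC1 under stress, had 866, 781 and 701 in double deficient tumours, against 2000, 2873 and 2290 in miR-34a deficient tumours (-1.60 ± 0.23, adjusted p = 0.0114, limma). Phlda3, whose product restrains AKT at the membrane, had 1106, 1193 and 1281 in double deficient tumours, against 4410, 6014 and 8268 in miR-34a deficient tumours (-2.34 ± 0.40, adjusted p = 0.0260, limma). In each of these genes the lowest miR-34a deficient library stood above the highest double deficient library. The other 20 genes of the list did not pass, 16 of them with a negative difference. Mdm2, the ubiquitin ligase that degrades p53, had 3103, 3332 and 3188 in double deficient tumours, against 4283, 4715 and 4318 in miR-34a deficient tumours, without overlap but with a difference of only -0.47 ± 0.14 (adjusted p = 0.123, limma).

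Ccng1 and Cdkn1a are shown with the stretch of their promoter that best matches the p53 response element consensus, since they are the called targets with such a match. The consensus is 20 bases long, a pair of decamers without a spacer, and reads the same on both strands. A match here means at least 17 of the 20 bases with all 4 core bases in place. It was found in the RefSeq promoters (300 bases, 250 before to 50 after the start, GRCm38.p6) of 12 of the 72 target genes with an entry, and of 2 of the 8 called ones with an entry. By the same reckoning per gene the share was 1.63% of all 27025 genes with an entry. Capitals mark the matching 20 bases, 19 of which fit the consensus in both genes. A gene can have several promoter entries, and the one with the best match was used. Which start these tumours use was not tested. For Ccng1 the stretch is chr11:40755432-40755511 on the minus strand, with the site starting 195 bases before the start of that entry. For Cdkn1a it is chr17:29090898-29090977 on the plus strand, with the site starting 51 bases before the start of the entry used.
Ccng1: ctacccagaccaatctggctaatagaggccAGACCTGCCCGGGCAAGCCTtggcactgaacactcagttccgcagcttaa
Cdkn1a: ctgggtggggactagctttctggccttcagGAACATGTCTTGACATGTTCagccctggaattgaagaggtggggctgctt
Gtse1, with as close a match, had a difference of -0.42 ± 0.23 and did not pass (adjusted p = 0.369, limma). Zmat3 had no promoter entry.

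Of the targets in cell death, 1 of 24 passed. Eda2r, which encodes the receptor of ectodysplasin A2, had values of 30, 174 and 35 in double deficient tumours, against 2452, 3878 and 2581 in miR-34a deficient tumours. The highest double deficient value was far below the lowest miR-34a deficient one, and the difference of -5.65 ± 0.74 was the largest of any p53 target (adjusted p = 0.00775, limma). Bbc3, the gene of the BH3-only protein PUMA, had 265, 149 and 214 in double deficient tumours, against 364, 437 and 715 in miR-34a deficient tumours (-1.25 ± 0.37, adjusted p = 0.118, limma). Bax, the gene of the pore-forming effector, had 2654, 2868 and 3079 in double deficient tumours, against 3856, 4749 and 4087 in miR-34a deficient tumours (-0.56 ± 0.28, adjusted p = 0.316, limma). Neither of these classical death genes passed, although their groups did not overlap.

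Of the targets in metabolism and repair, 3 of 38 passed, and these were among the deepest losses. Fam212b, now called Inka2, whose product inhibits the kinase PAK4, had values of 48, 30 and 23 in double deficient tumours, against 324, 720 and 463 in miR-34a deficient tumours (-3.85 ± 0.39, adjusted p = 0.00137, limma). Ephx1, the gene of microsomal epoxide hydrolase, which detoxifies epoxides, had 325, 83 and 143 in double deficient tumours, against 1756, 2032 and 1742 in miR-34a deficient tumours (-3.54 ± 0.56, adjusted p = 0.0182, limma). 9030617O03Rik, now called Dglucy, the gene of D-glutamate cyclase, had 85, 99 and 82 in double deficient tumours, against 458, 537 and 494 in miR-34a deficient tumours (-2.47 ± 0.26, adjusted p = 0.00171, limma). For each of them the miR-34a deficient libraries stood several fold above every double deficient library.

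The calls of Ccng1, Fam212b and 9030617O03Rik held in all 26 alternative settings. Eda2r was lost without double deficient 3 (adjusted p = 0.0510), and Ephx1 and Sesn2 without that library or miR-34a deficient 2 (adjusted p up to 0.105 and 0.0786). Zmat3 was lost without any miR-34a deficient library or double deficient 2 or 3 (up to 0.150), and Phlda3 without miR-34a deficient 2 or 3 or any double deficient library (up to 0.127). Cdkn1a was lost without wt 1 or any of the 6 libraries compared (up to 0.159). Cdkn1a, Zmat3 and Phlda3 were also lost when the Y-linked level was adjusted for. These 3 and Ephx1 did not pass without the libraries of the other name code. Cdkn1a was further lost without a trend in the prior variance, and Phlda3 when equal replicate numbers were treated as pairs. None of the 9 changed sign in any setting.

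**Figure D1:**
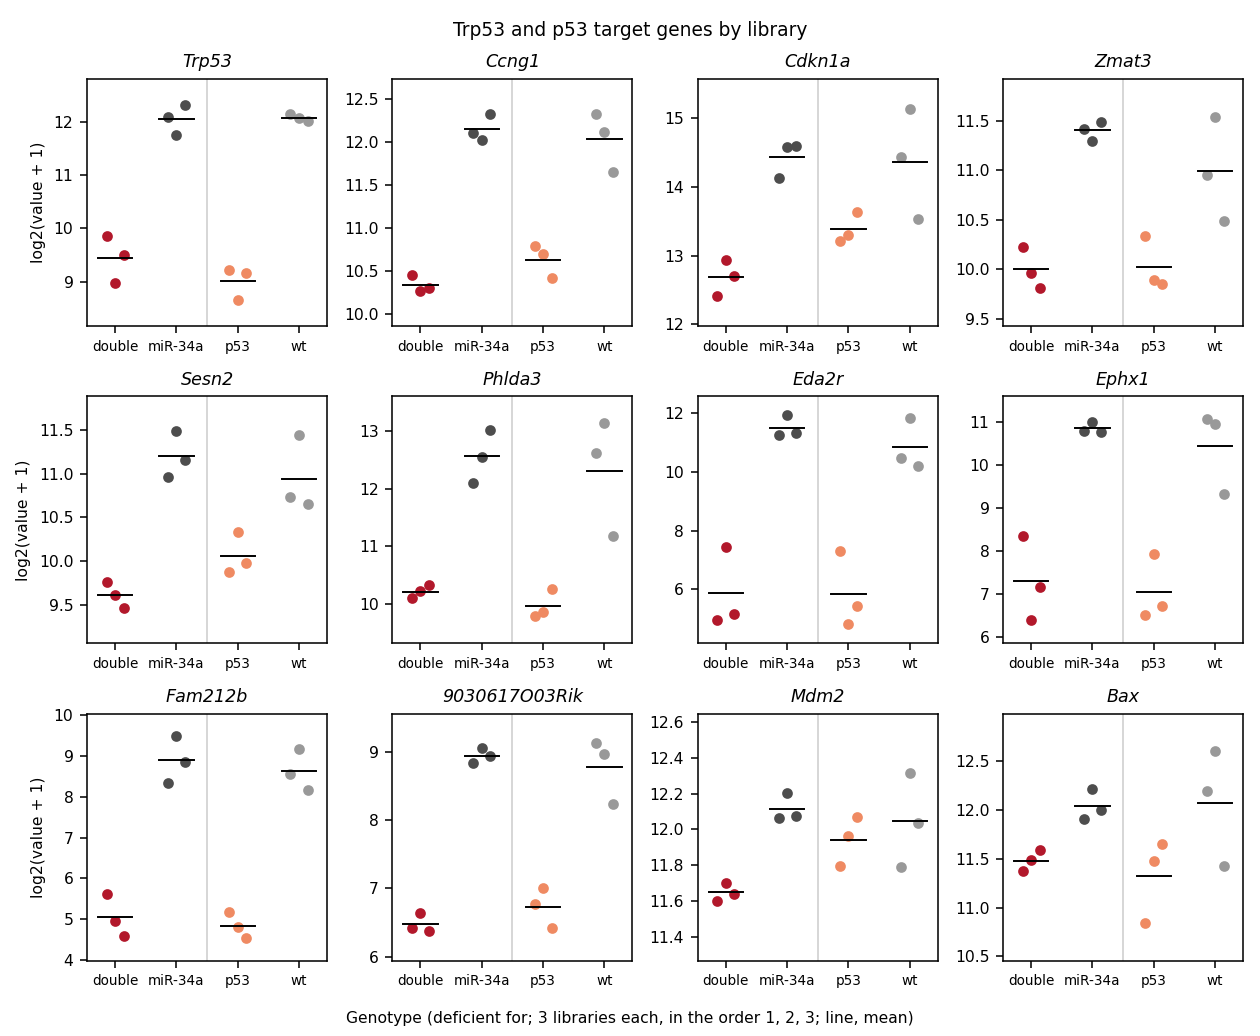
Values of Trp53, the 9 p53 targets that passed, Mdm2 and Bax, as log2(value + 1) on the vertical axis, with 1 point per library and a line at the mean of 3. In every panel the 3 double deficient libraries lie below the 3 miR-34a deficient libraries, and the grey line separates the p53 deficient and wt tumours.

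The deepest losses outside the p53 lists were in genes of differentiated epithelium and in genes better known from other tissues. The named genes here are the 15 largest differences in each direction among genes that passed, with a group mean of at least 100, no overlap and no annotation as a clone, predicted gene or pseudogene. This leaves out Pla2g2a, which GENCODE lists as a polymorphic pseudogene and which fell by 4.88 on the log2 scale; its values are among the other observations. Retnlb, the goblet cell protein RELM-beta that acts against bacteria, had values of 12, 95 and 17 in double deficient tumours, against 3548, 7650 and 621 in miR-34a deficient tumours (-6.51 ± 0.96, adjusted p = 0.0138, limma). Aqp8, a water channel of surface colonocytes, had 0, 10 and 1 in double deficient tumours, against 209, 150 and 42 in miR-34a deficient tumours (-5.31 ± 0.84, adjusted p = 0.0182, limma). Clca6, of the calcium-activated chloride channel regulator family, had 370, 4403 and 926 in double deficient tumours, against 14089, 16115 and 9171 in miR-34a deficient tumours (-3.48 ± 0.71, adjusted p = 0.0492, limma). In all 3 genes double deficient 2 kept the most of the double deficient libraries, yet less than any miR-34a deficient library.

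Fshr, the receptor of follicle-stimulating hormone, known for its part in the gonads, had the lowest p of the named genes. It had values of 58, 33 and 32 in double deficient tumours, against 1187, 1701 and 1002 in miR-34a deficient tumours (-4.97 ± 0.32, adjusted p = 6.34e-05, limma). St8sia2, a sialyltransferase that builds polysialic acid, had 83, 63 and 60 in double deficient tumours, against 1265, 1035 and 2225 in miR-34a deficient tumours (-4.37 ± 0.38, adjusted p = 0.000596, limma). Both were low in all 3 double deficient libraries. For St8sia2 the miR-34a deficient group was the high one of the 4 genotypes. It had 134, 90 and 70 in p53 deficient and 228, 472 and 210 in wt tumours (-1.57 ± 0.38, adjusted p = 0.121, limma). Cyp2f2, a cytochrome P450 of airway club cells, had 1, 5 and 1 in double deficient tumours, against 67, 203 and 70 in miR-34a deficient tumours (-5.11 ± 0.61, adjusted p = 0.00381, limma). The 3 neighbouring and similar genes Khdc1a, Khdc1b and Khdc1c on chromosome 1 fell together, with differences of -6.30 ± 0.98, -4.43 ± 0.89 and -6.39 ± 1.12 (adjusted p = 0.0182, 0.0475 and 0.0285, limma). How reads were shared among these copies is not known, so they are no 3 separate observations. Ankfn1, Sult4a1 and Csta1 differed by -3.64 ± 0.57, -3.53 ± 0.52 and -3.50 ± 0.52 (adjusted p = 0.0182, 0.0138 and 0.0138, limma), with no overlap. For Ankfn1 the miR-34a deficient group was the high one, at 388, 282 and 1117. Double deficient tumours had 32, 46 and 40, p53 deficient tumours 33, 28 and 9, and wt tumours 54, 28 and 28. Csta1 belongs to the stefin A family of cysteine protease inhibitors.

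Fshr, St8sia2 and Cyp2f2 passed under all 26 alternatives. Retnlb, Sult4a1 and Csta1 were lost without miR-34a deficient 2 or double deficient 3 (adjusted p up to 0.0794), and Ankfn1 without double deficient 1 or 3 (up to 0.0996). Khdc1a was lost without miR-34a deficient 2 or 3 or double deficient 1 or 3 (up to 0.0794), Khdc1c also without miR-34a deficient 1 (up to 0.138), and Aqp8 without miR-34a deficient 1 or 2 or double deficient 1 or 3 (up to 0.110). Khdc1b and Clca6 were lost without any of 8 and 10 of the 12 libraries (up to 0.182 and 0.221). With the absent direction as a covariate Khdc1c, Khdc1b and Clca6 did not pass (adjusted p between 0.0604 and 0.0994).

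Genes that were higher in double deficient tumours included genes of iron and lactate transport, growth signals and mitosis. Tfrc, the transferrin receptor that takes up iron, had values of 10687, 8630 and 10378 in double deficient tumours, against 3338, 2574 and 2346 in miR-34a deficient tumours (1.86 ± 0.21, adjusted p = 0.00299, limma). Slc16a3, the lactate exporter MCT4, had 4370, 5973 and 7788 in double deficient tumours, against 1069, 971 and 1223 in miR-34a deficient tumours (2.44 ± 0.39, adjusted p = 0.0194, limma). Both genes were well above the miR-34a deficient range in every double deficient library. Etv4, an ETS factor that follows ERK signalling, had 3907, 2584 and 3169 in double deficient tumours, against 943, 1284 and 674 in miR-34a deficient tumours (1.76 ± 0.30, adjusted p = 0.0242, limma). Btc, which encodes betacellulin, a ligand of the EGF receptor, had 5937, 5055 and 6273 in double deficient tumours, against 2619, 2672 and 2467 in miR-34a deficient tumours (1.15 ± 0.17, adjusted p = 0.0156, limma). These were the 2 of 22 genes in the list of EGF receptor ligands and ERK output that passed, and the median of that list was -0.04. Areg, Dusp6 and Spry4 of the same list had differences of -0.57, -0.31 and -0.15 and did not pass (adjusted p = 0.62, 0.67 and 0.91).

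Paox, the polyamine oxidase, had values of 1908, 1598 and 1531 in double deficient tumours, against 777, 671 and 515 in miR-34a deficient tumours (1.37 ± 0.19, adjusted p = 0.00987, limma). Mif, the macrophage migration inhibitory factor, had 5687, 5991 and 6999 in double deficient tumours, against 2608, 2889 and 2689 in miR-34a deficient tumours (1.19 ± 0.20, adjusted p = 0.0235, limma). Mab21l3 had the largest difference of the 15, 2.65 ± 0.47, with 4046, 2778 and 2552 in double deficient tumours, against 496, 546 and 423 in miR-34a deficient tumours (adjusted p = 0.0285, limma). All of these groups were separate. Apln, the gene of the vascular peptide apelin, differed by 2.30 ± 0.44 (adjusted p = 0.0402, limma). Xaf1, an interferon-induced antagonist of the XIAP protein, differed by 2.46 ± 0.47 (adjusted p = 0.0375, limma). It was the 1 of 24 interferon response genes to pass, in a list whose median was -0.19. Xaf1 had 553, 353 and 353 in double deficient tumours, against 97, 76 and 54 in miR-34a deficient tumours. With 408, 756 and 250 in p53 deficient and 357, 255 and 797 in wt tumours, the miR-34a deficient group was the low one. The rest of the 15 belonged to DNA synthesis and mitosis or lay beside Trp53. Bub3 and Pttg1 of the spindle checkpoint and chromatid separation differed by 1.21 ± 0.23 and 1.09 ± 0.22, Cdkn3 by 1.22 ± 0.23, Pold2 of DNA polymerase delta by 1.13 ± 0.23 and Tk1, thymidine kinase, by 1.09 ± 0.22 (adjusted p between 0.0371 and 0.0492, limma).

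Tfrc passed under all 26 alternatives and Paox under all but the one without double deficient 3 (adjusted p = 0.0510). Btc was lost without miR-34a deficient 2 or double deficient 3 (up to 0.105), and Slc16a3 also without miR-34a deficient 1 (up to 0.123). Etv4 was lost without miR-34a deficient 1 or 3 or double deficient 1 or 3 (up to 0.130), and Mif without any miR-34a deficient library or double deficient 1 or 3 (up to 0.143). Mab21l3 was lost without any of the 6 libraries compared (up to 0.123). Apln, Xaf1, Cdkn3, Bub3, Pttg1, Pold2 and Tk1 were lost without any of 6 to 10 of the 12 libraries (up to 0.244). With the absent direction as a covariate Tfrc, Paox, Btc and Slc16a3 passed, and the other 11 of the 15 did not (adjusted p between 0.0562 and 0.105). Mab21l3, Xaf1, Sat2, Etv4, Cdkn3, Bub3, Pold2 and Pttg1 also lost their calls when the Y-linked level was adjusted for. Without the libraries of the other name code Slc16a3 and Btc were lost, as were Mab21l3, Xaf1, Apln, Sat2, Etv4, Cdkn3, Pold2, Pttg1 and Tk1. In a fit of the groups compared alone Apln, Sat2, Cdkn3, Bub3, Pold2 and Tk1 did not pass.

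**Figure D2:**
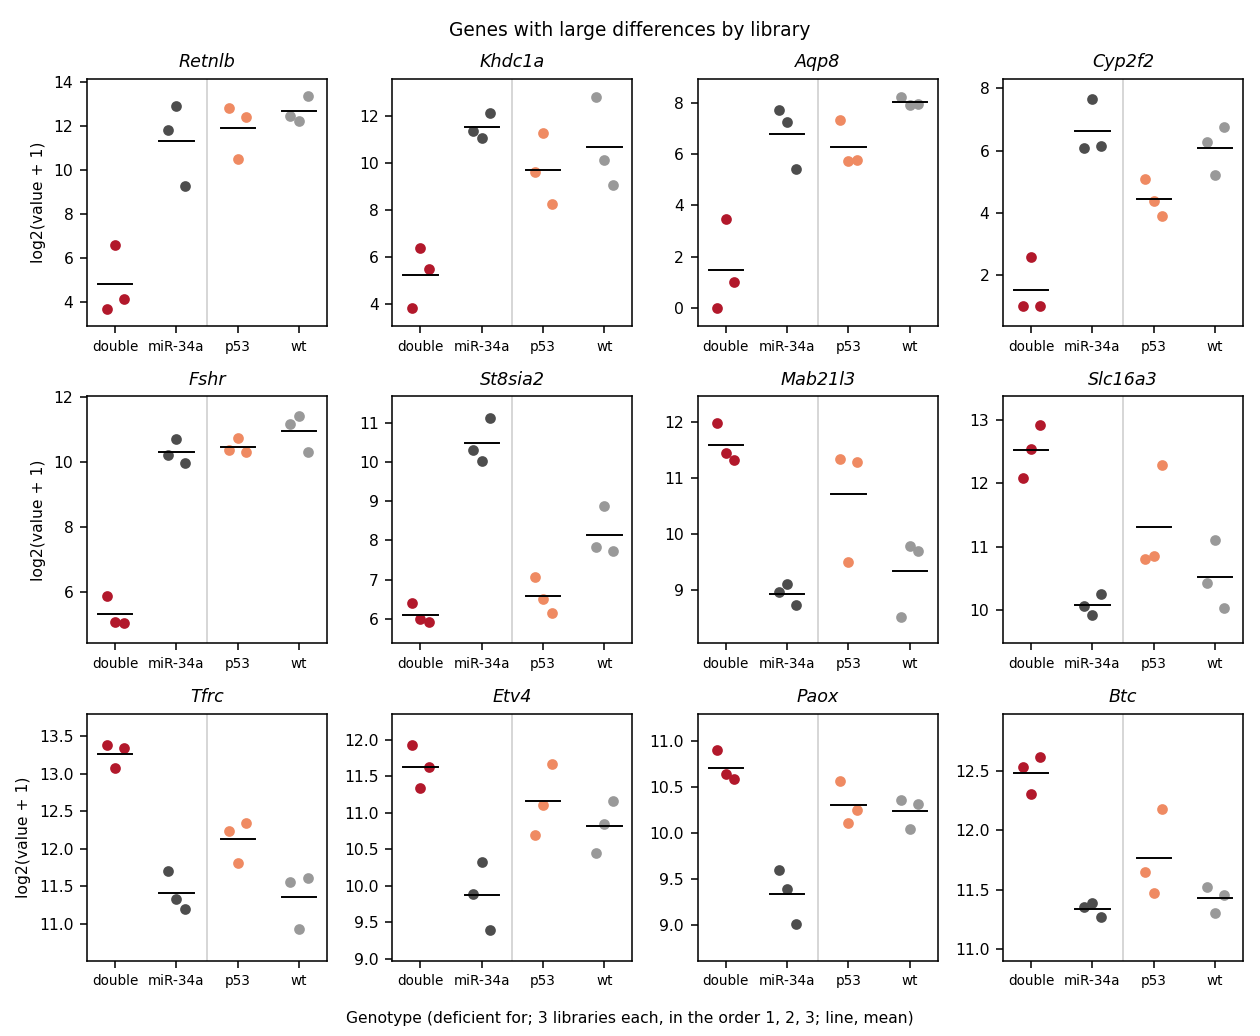
Values of 6 genes that fell (Retnlb to St8sia2) and 6 that rose (Mab21l3 to Btc), as log2(value + 1), with 1 point per library and a line at the mean of 3. Fshr and Retnlb are lowest in the double deficient column of the 4 genotypes shown. St8sia2 is highest in the miR-34a deficient column, and both p53 deficient and wt tumours lie below it.

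Of 43 tested genes of proliferation 2 passed, Tk1 and Cdc20, both higher, and 42 had a positive difference. At an unadjusted p under 0.05, 32 were higher and 0 lower. The median was 0.61, beside -0.06 over all genes, and 39 of the 43 had groups that did not overlap in the higher direction, beside 13.0% of all genes. Cdc20, the activator of the anaphase-promoting complex, had values of 5066, 4903 and 5967 in double deficient tumours, against 3057, 2945 and 3315 in miR-34a deficient tumours (0.77 ± 0.16, adjusted p = 0.0492, limma). It was lost without any of 9 of the 12 libraries (up to 0.246), and neither Cdc20 nor Tk1 passed with the absent direction as a covariate or with median-of-ratios scaling (adjusted p up to 0.0546 with that scaling). Mki67, the gene of Ki-67, had 7526, 11166 and 11399 in double deficient tumours, against 8804, 5937 and 7384 in miR-34a deficient tumours, with overlap (0.44 ± 0.26, adjusted p = 0.410, limma). Myc had 7862, 4960 and 6506 in double deficient tumours, against 4238, 3761 and 4562 in miR-34a deficient tumours, without overlap (0.60 ± 0.18, adjusted p = 0.116, limma). Among the 7 cell cycle inhibitors of the INK4 and CIP families Cdkn1a alone passed. Cdkn2a, the gene of p16 and ARF, had 19242, 13337 and 6835 in double deficient tumours, against 3392, 12096 and 4731 in miR-34a deficient tumours, with overlap (1.06 ± 0.65, adjusted p = 0.424, limma).

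Markers of mature epithelium mostly had negative differences. Of 37 colonocyte markers 2 passed, Aqp8 and Saa1, both lower, where 0.619% of all genes were lower. A negative difference was found in 35, with a median of -1.06, beside -0.06 over all genes. At an unadjusted p under 0.05, 18 were lower and 0 higher, and 15 were wholly lower, beside 14.3% of all genes. Saa1, an acute phase protein of the gut lining, had values of 269, 2589 and 615 in double deficient tumours, against 5751, 12711 and 6915 in miR-34a deficient tumours (-3.40 ± 0.64, adjusted p = 0.0375, limma). Its call was lost without any of 7 of the 12 libraries (up to 0.188). Slc26a3, the chloride bicarbonate exchanger of the colon surface, had 17, 71 and 13 in double deficient tumours, against 758, 1125 and 160 in miR-34a deficient tumours, without overlap (-4.30 ± 0.92, adjusted p = 0.0583, limma). Of 20 goblet cell markers 2 passed, Retnlb and Tpsg1, both lower, and 17 had a negative difference, with a median of -1.33. At an unadjusted p under 0.05, 12 were lower and 0 higher, and 4 were wholly lower, beside 14.3% of all genes. Tpsg1, a transmembrane serine protease, had 86, 92 and 54 in double deficient tumours, against 407, 997 and 382 in miR-34a deficient tumours (-2.82 ± 0.54, adjusted p = 0.0375, limma), a call lost without any of 8 libraries (up to 0.203). Muc2, the main colonic mucin, had 1850, 7074 and 1460 in double deficient tumours, against 26453, 54800 and 4815 in miR-34a deficient tumours, and the groups overlapped (-2.84 ± 0.86, adjusted p = 0.123, limma). The sum of the goblet markers ran between 65549 and 135130 in double deficient tumours, against 110484 and 802676 in miR-34a deficient tumours. The sum of the colonocyte markers ran between 77255 and 195551 in double deficient tumours, against 185818 and 241473 in miR-34a deficient tumours. The part that the share of these cells plays in the differences of Retnlb, Aqp8, Saa1 and Tpsg1 was not tested. No marker of the enteroendocrine list passed (limma; 3 of 20 lower at an unadjusted p under 0.05), with a median of -0.64.

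**Figure D3:**
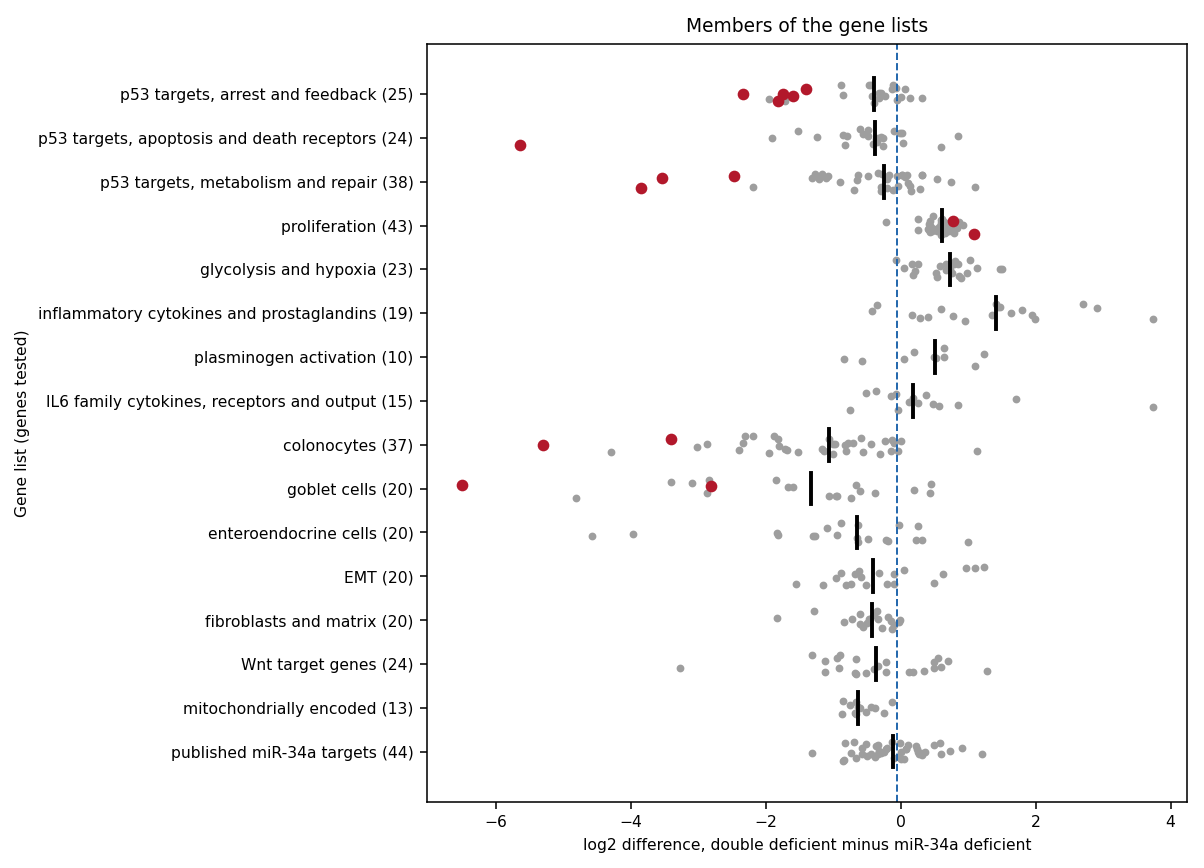
Difference of each tested member of 16 gene lists, double deficient minus miR-34a deficient, on the log2 scale, with red points for genes that passed, grey points for the others, a black bar at the median of the list and a dashed line at the median of all genes, -0.06. Proliferation lies almost wholly right of the dashed line, with a median of 0.61, and colonocytes almost wholly left of it, with a median of -1.06.

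Inflammatory genes and the genes of interleukin 6 signalling were read because miR-34a and p53 both act on that pathway. Il6, the cytokine itself, had values of 70, 165 and 100 in double deficient tumours, against 1, 11 and 20 in miR-34a deficient tumours. The groups were separate and the difference was 3.74 ± 0.88, but it did not pass (adjusted p = 0.0709, limma). Il6ra, the receptor chain that miR-34a is known to repress, had 179, 224 and 145 in double deficient tumours, against 205, 218 and 385 in miR-34a deficient tumours, with overlap (-0.52 ± 0.55, adjusted p = 0.661, limma). Of the 19 tested inflammatory cytokines and prostaglandin genes none passed (limma; 10 higher and 0 lower at an unadjusted p under 0.05), while 17 had a positive difference, 12 were wholly higher, beside 13.0% of all genes, and the median was 1.41. Nos2, the inducible nitric oxide synthase, had 2367, 2157 and 2217 in double deficient tumours, against 326, 890 and 611 in miR-34a deficient tumours (2.0 ± 0.44, adjusted p = 0.0619, limma). Of 14 neutrophil markers 1 passed as higher and 1 as lower (limma; 4 higher and 2 lower at an unadjusted p under 0.05). A positive difference was found in 10 and a negative one in 4, with a median of 1.065, beside -0.06 over all genes. Of the 14, 5 were wholly higher, beside 13.0% of all genes, and 2 wholly lower, beside 14.3%. Ngp, a granule protein of immature neutrophils, had 22, 12 and 15 in double deficient tumours, against 0, 0 and 1 in miR-34a deficient tumours (3.74 ± 0.64, adjusted p = 0.0242, limma). Ly6g, the surface marker of neutrophils, had 1407, 2469 and 1853 in double deficient tumours, against 4410, 7457 and 5208 in miR-34a deficient tumours (-1.58 ± 0.30, adjusted p = 0.0372, limma). These calls were lost without either of miR-34a deficient 1 and 2 or double deficient 1 and 3 (up to 0.130 for Ngp and 0.175 for Ly6g), and Ly6g also without miR-34a deficient 3 or wt 1. The summed neutrophil markers ran between 8192 and 13771 in double deficient tumours, against 11673 and 15712 in miR-34a deficient tumours. Ly6g is part of that sum, so the sum and the median of the list need not go the same way.

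Plasminogen activation, another pathway of tumour invasion, had 8 of 10 tested genes with a positive difference and none that passed, with a median of 0.51 (limma; 2 higher and 1 lower at an unadjusted p under 0.05). Plaur, the urokinase receptor, had values of 6997, 8570 and 7722 in double deficient tumours, against 3400, 4841 and 2889 in miR-34a deficient tumours, without overlap (1.09 ± 0.32, adjusted p = 0.117, limma). None of 20 genes of epithelial-mesenchymal transition passed (limma; 1 higher and 4 lower at an unadjusted p under 0.05), and 14 had a negative difference. Vim, the gene of vimentin, had 4919, 2838 and 3086 in double deficient tumours, against 7757, 6330 and 6409 in miR-34a deficient tumours (-0.96 ± 0.29, adjusted p = 0.120, limma). Fibroblast and matrix markers had a negative difference in 20 of 20 genes, with a median of -0.43 and none passing (limma; 2 lower at an unadjusted p under 0.05), and their sums ran between 29948 and 61912 in double deficient tumours, against 47186 and 71457 in miR-34a deficient tumours. Whether the level of Vim follows those cells was not tested.

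Glycolysis and hypoxia genes, to which the lactate exporter Slc16a3 is related, had a positive difference in 22 of 23 and a median of 0.74, with 16 wholly higher, beside 13.0% of all genes, and none that passed (limma; 13 higher and 0 lower at an unadjusted p under 0.05). Gapdh had values of 6056, 6953 and 8481 in double deficient tumours, against 1968, 2947 and 2855 in miR-34a deficient tumours (1.48 ± 0.33, adjusted p = 0.0662, limma). Bnip3, a mitophagy gene induced by hypoxia, had 4040, 3648 and 4748 in double deficient tumours, against 1436, 1509 and 1402 in miR-34a deficient tumours (1.51 ± 0.35, adjusted p = 0.0695, limma). All 13 mitochondrially encoded genes had a negative difference, with a median of -0.63 and none passing (limma; 4 lower at an unadjusted p under 0.05). Neither the Wnt target list nor the stem cell list gave a call (limma; 4 of 24 higher and 2 lower, and 3 of 16 higher and 1 lower, at an unadjusted p under 0.05). Lgr5, the stem cell receptor, had 5907, 1487 and 4732 in double deficient tumours, against 1729, 2698 and 2043 in miR-34a deficient tumours, with overlap (0.71 ± 0.67, adjusted p = 0.620, limma). Axin2, the feedback inhibitor of Wnt signalling, had 10586, 11431 and 12406 in double deficient tumours, against 14133, 9846 and 21881 in miR-34a deficient tumours, with overlap (-0.34 ± 0.39, adjusted p = 0.686, limma). Of 44 published miR-34a targets none passed (limma; 5 higher and 5 lower at an unadjusted p under 0.05), 19 had a positive and 25 a negative difference, and the median was -0.11. The targets Axl and Inhbb had differences of -0.32 ± 0.35 and 0.32 ± 0.37 (adjusted p = 0.675 and 0.690, limma). In all, 28 of the 38 lists had no member that passed.

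The same loss of p53 could be read where miR-34a is present, from p53 deficient against wt tumours, which share no library with the comparison above but share its estimate of spread. There 5 genes passed (0.0234%), and 3265 had an unadjusted p under 0.05. All 5 were also among the 193, with the same direction. They were Trp53, Ccng1, Fam212b, 9030617O03Rik and Sat2. Ccng1 had values of 1764, 1665 and 1363 in p53 deficient tumours, against 5125, 4437 and 3217 in wt tumours (-1.40 ± 0.18, adjusted p = 0.0368, limma). Fam212b had 35, 27 and 22 in p53 deficient tumours, against 377, 576 and 285 in wt tumours (-3.80 ± 0.39, adjusted p = 0.00781, limma). 9030617O03Rik had 108, 127 and 85 in p53 deficient tumours, against 561, 504 and 302 in wt tumours (-2.05 ± 0.26, adjusted p = 0.0368, limma). Sat2, which lies beside Trp53, had 98, 167 and 228 in p53 deficient tumours, against 24, 27 and 19 in wt tumours (2.70 ± 0.36, adjusted p = 0.0378, limma). The count moved with the libraries used. Without p53 deficient 1, 88 genes passed, and without wt 3 there were 14, while without wt 1 there was 1. Without any library of the other 2 genotypes 2 or 3 passed.

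Of the 193 genes, 166 had the same sign in p53 deficient against wt tumours (86.0%), beside 63.3% of all tested genes. Among the 132 that fell the median was -2.17 in double against miR-34a deficient tumours and -0.50 in p53 deficient against wt tumours. Among the 61 that rose it was 1.13 and 0.38. The first value of each pair is the one on which the genes were chosen. Across the 12936 genes whose mean reached 100, the 2 differences had a Pearson r of 0.421 and a Spearman rho of 0.428. This is across genes, which are not independent replicates.

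The test of whether the 2 differences were unequal, the interaction of both deletions, called 5 genes (0.0234%), with 1683 at an unadjusted p under 0.05. None was a p53 target. The lowest adjusted p of the interaction among the 87 targets was 0.335, and 7 of them had an unadjusted p under 0.05, where 7.89% of all genes did. Their median interaction was -0.10, beside 0.01 over all genes. Eda2r differed by -5.65 ± 0.74 in double against miR-34a deficient tumours and by -4.99 ± 0.74 in p53 deficient against wt tumours, and Ephx1 by -3.54 ± 0.56 and -3.38 ± 0.56. Phlda3 differed by -2.34 ± 0.40 in both. Cdkn1a differed by -1.74 ± 0.32 and by -0.98 ± 0.32, an interaction of -0.76 (adjusted p = 0.72, limma).

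Fshr was the protein-coding gene among the 5. Its values were 1321, 1712 and 1264 in p53 deficient tumours, against 2311, 2737 and 1286 in wt tumours (-0.50 ± 0.32, adjusted p = 0.488, limma), so its loss stood in the double deficient libraries of the 4 genotypes. Its interaction was -4.47 (adjusted p = 0.0078, limma). Tfrc, at 4839, 3594 and 5180 in p53 deficient tumours, against 3011, 1948 and 3115 in wt tumours, had an interaction of 1.09 that did not pass (adjusted p = 0.43, limma). Retnlb, at 7128, 1449 and 5455 in p53 deficient tumours, against 5662, 4796 and 10451 in wt tumours, had an interaction of -5.73 that did not pass either (adjusted p = 0.34, limma).

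**Figure D4:**
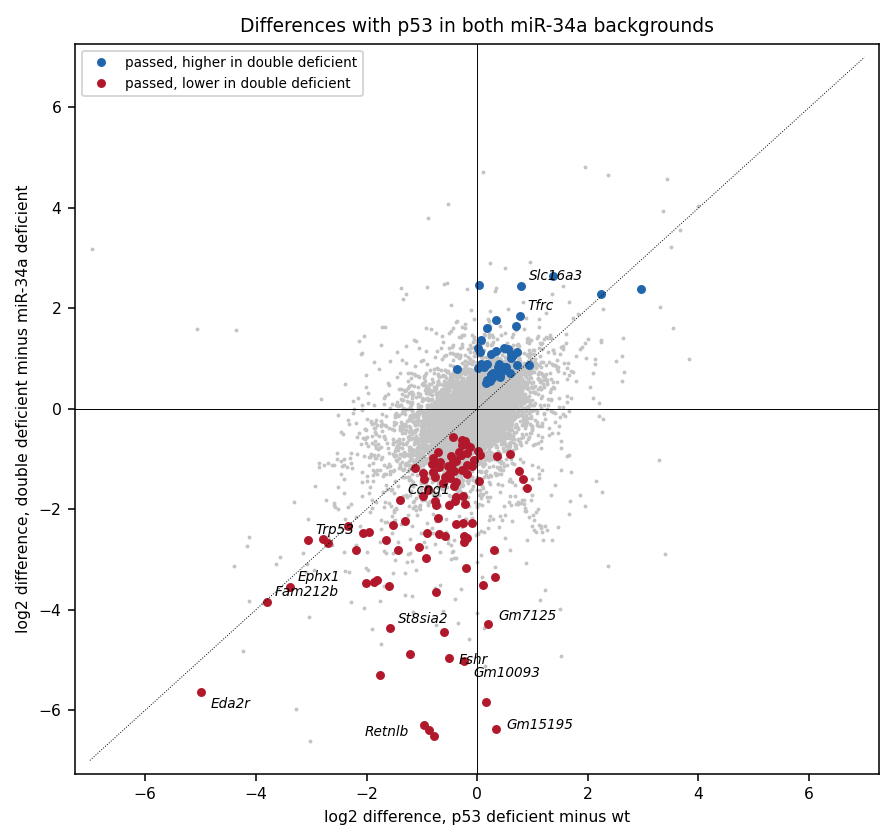
Differences of p53 deficient minus wt (horizontal) and of double deficient minus miR-34a deficient tumours (vertical), both on the log2 scale, for the 12936 genes whose mean reached 100, with 1 point per gene and a dotted line of equality. Eda2r, Ephx1, Fam212b and Trp53 lie near the dotted line, and Fshr, Gm10093, Gm7125 and Gm15195 lie far below it near a horizontal value of 0.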

How the data were processed

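The deposited table holds score values per gene symbol in 12 columns, that is, normalized expression values that the authors rounded to whole numbers, as the values themselves show. Per the submitters' processing notes the genome build is mm10. No source used here gives the aligner, the counting, its strand setting or the normalization. The values are not counts, so depth and counting precision are unknown, and the test was limma 3.58.1 in R 4.3.3, not a count test. It was run with a trend in the prior variance on log2(value + 1) of the 21322 of 21792 genes with a mean of at least 1, with 1 mean per genotype over all 12 libraries and 8 residual degrees of freedom (7 with the absent direction as a covariate). GENCODE M21 (GRCm38) gave positions for 97.5% of genes. Replicate numbers were not treated as pairs in the reported fit. Of 18 same-number pairs 7 correlated above 0.1, up to 0.509 for p53 deficient 3 and double deficient 3. Without pairs of unequal number beside it, this count cannot decide whether the numbers pair the libraries.

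The members, lists and rule for named genes were chosen with earlier results of these data known. Named genes are Trp53 and its neighbours, a set of fixed genes, the 15 largest differences each way without pseudogenes or predicted genes, and called or lowest-p members of each list. Gtse1, Slc26a3, Muc2, Areg, Dusp6 and Spry4 were added outside this rule with their values known. The result of 1 named gene is not reported here. In 10 simulations on 21322 genes the fit recovered 40.8% of changes of 1 and 78.8% of changes of 2 on the log2 scale for this comparison, with 12.0% of calls false. With the absent direction as a covariate it recovered 32.4% and 74.5%, with 5.31% false. The alternatives changed scaling, pseudocount, filter, trend, libraries and covariates. Tables were made in Python.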

Additional observations from a re-analysis of the deposited data

Results flagged for a closer look

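The interaction of both deletions passed for 5 genes, whose differences with p53 loss were unequal with and without miR-34a. Fshr had an interaction of -4.47, as double deficient tumours had values of 58, 33 and 32 and the lowest of the other 9 libraries had 1002. It passed in 23 of 25 alternatives (adjusted p up to 0.0676). Gm15195, a processed pseudogene on the X chromosome, had an interaction of -6.73 and passed in all 25 (adjusted p up to 0.0430), with 1, 3 and 3 in double deficient tumours, against 279, 201 and 328 in miR-34a deficient tumours. Gm10093, a processed pseudogene on chromosome 17, had an interaction of -4.79, with 46, 104 and 103 in double deficient tumours, against 2076, 2106 and 4053 in miR-34a deficient tumours. Gm7125, a long noncoding RNA on chromosome 15, had an interaction of -4.49, with 24, 23 and 19 in double deficient tumours, against 573, 456 and 342 in miR-34a deficient tumours. Gm12196, a processed pseudogene on chromosome 11, had an interaction of -4.42, with 1, 0 and 0 in double deficient tumours, against 14, 11 and 12 in miR-34a deficient tumours. The last 3 passed in 10 of 25, 8 of 25 and 10 of 24 alternatives run (adjusted p up to 0.416, 0.422 and 0.363). Reads of pseudogenes can be shared with their parent genes, so these values are uncertain.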

How the results depend on the processing

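Higher and lower genes numbered 61 and 132 in the reported fit, 92 higher genes with quantile normalization and 30 without a trend in the prior variance. They numbered 14 and 43 with the absent direction as a covariate, 27 and 46 with the Y-linked level, 28 and 58 with the library name code, and 18 and 61 without the libraries of the other name code. That last setting also left 5 of the 9 lower p53 targets and gave 8 genes for p53 deficient against wt tumours. Leaving out 1 library gave between 7 and 98 higher genes, between 16 and 167 lower genes, between 3 and 9 lower p53 targets, between 1 and 88 genes for p53 deficient against wt tumours and between 2 and 10 for the interaction. For p53 deficient against wt tumours, 3 genes passed with a pseudocount of 10, 1 with the groups compared alone, 2 with the absent direction and 1 when the Y-linked level was adjusted for. For the interaction 2 passed with the absent direction and 1 when the Y-linked level was adjusted for. In a fit with a replicate block, which treats equal replicate numbers as pairs, 46 genes were higher and 95 lower, 2 passed for p53 deficient against wt tumours and 3 for the interaction. Of the 12 libraries 3 lay closest to their own number. Beside the calls given above, those of Eif4a1, Saa1, Tpsg1, Ngp and Ly6g were lost when the Y-linked level was adjusted for. No named gene that passed changed sign in any setting. Among the named genes that did not pass 7 changed sign in at least 1 setting, Cdh1, Vil1, Chd3, Cyb5d1, Dnah2os, Fxr2 and Tnfsf13os. Depth is unknown, so calls of genes with low values, such as Aqp8, Ngp and Cyp2f2, carry an unknown counting error.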

Other observations

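The genes below were named after their values were seen. Pla2g2a, a secreted phospholipase whose gene is known as a modifier of intestinal tumour number in mice, had values of 17538, 2147 and 10835 in double deficient tumours, against 132992, 217698 and 358203 in miR-34a deficient tumours (-4.88 ± 0.80, adjusted p = 0.0217, limma). It had 29570, 91520 and 151916 in p53 deficient tumours, against 265659, 233995 and 82023 in wt tumours, with overlap. GENCODE lists it as a polymorphic pseudogene, since the reference strain carries a broken allele. Rbp2, the intestinal retinol-binding protein, had 72, 88 and 57 in double deficient tumours, against 321, 337 and 432 in miR-34a deficient tumours (-2.32 ± 0.41, adjusted p = 0.0298, limma). Rdh16, a retinol dehydrogenase, had 461, 1129 and 433 in double deficient tumours, against 2706, 4019 and 2448 in miR-34a deficient tumours (-2.29 ± 0.44, adjusted p = 0.0375, limma). Lrat, which esterifies retinol, was listed at 0 in all 3 double deficient libraries, against 22, 9 and 4 in miR-34a deficient tumours (adjusted p = 0.0182, limma). Foxa2, a transcription factor of the gut epithelium, had 1896, 1714 and 1645 in double deficient tumours, against 4455, 5864 and 9372 in miR-34a deficient tumours (-1.84 ± 0.29, adjusted p = 0.0182, limma).

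Another 7 of the 61 genes that rose, from no list and also named after their values were seen, rose by less than 1 on the log2 scale. Noc4l, Cirh1a, Mybbp1a and Nop56, which act in the nucleolus, differed by 0.71 ± 0.12, 0.84 ± 0.14, 0.87 ± 0.16 and 0.68 ± 0.14 (adjusted p = 0.0231, 0.0247, 0.0318 and 0.0492, limma). The proteasome genes Psmd12, Psmc2 and Psmb7 differed by 0.71 ± 0.11, 0.56 ± 0.11 and 0.52 ± 0.10 (adjusted p = 0.0182, 0.0375 and 0.0402, limma). None of the 7 passed with the absent direction as a covariate (lowest adjusted p = 0.0515).

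The windows below were chosen after the values were seen, and the placement of calls was not tested. Over all genes 0.286% were higher and 0.619% lower. On chromosome 11, where Trp53 lies, 19 genes were higher and 7 lower of 1680 tested (1.55%), and within 10 Mb of Trp53 11 of the other 384 genes were higher and 0 lower. The median difference of those 384 genes was 0.13, and 0.15 in p53 deficient against wt tumours. On chromosome 4 within 20 Mb of the miR-34a gene, a stretch that holds Pla2g2a, 14 of 438 tested genes were lower and 0 higher (3.20%), with a median of -0.31, and of -0.15 in p53 deficient against wt tumours. On chromosome 17 within 10 Mb of Fshr, 5 of the other 79 tested genes were lower and 1 higher (7.59%), with a median of -0.27, and of 0.05 in p53 deficient against wt tumours.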
